A study of Sus scrofa with 6 samples.

Results

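The genes described here copy the genome in S phase. They are 34 genes of DNA replication, listed by symbol in 5 roles and 1 transcription factor: licensing of origins, the replicative helicase, the polymerases with primase, the clamp with its loader and the enzymes that join Okazaki fragments, the supply of nucleotides, and E2F1. Rows of the expression table were matched to these symbols through their pig Ensembl identifiers. A row was found for 30 of the 34, out of 20731 rows in all, and each of the 30 had a mean of at least 1 FPKM and entered the test with 10950 genes. GINS2, PCNA, FEN1 and RRM2 were not matched to a row and were not analysed here. FPKM values are fragment numbers scaled by gene length and library size.

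The cells were immature Sertoli cells of the pig testis, the somatic cells of the seminiferous tubule that support germ cells and that divide before puberty. In 3 libraries, labelled MT, the cells had been kept for 36 h with 10 nM melatonin, which the pineal gland secretes. Another 3 libraries are labelled Control, with no dose, solvent or time given. Every library was made from total RNA of cells of the same description, with no genetic change named. The labels do not say whether replicates were separate cultures or animals, so the spread that the p-values rest on is that of these 6 libraries and may be technical.

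Replication is prepared in G1, when the origin recognition complex, CDC6 and CDT1 load a ring of MCM2 to MCM7 onto DNA. Geminin later blocks further loading by binding CDT1. In S phase CDC45 and the GINS complex join the ring to form the active helicase, the polymerases copy the strands, and the sliding clamp PCNA, set in place by replication factor C, holds them on DNA. Many of these genes are transcribed under E2F factors and rise together as cells enter the cycle. Their summed RNA in a culture follows both the share of cells in S phase and the RNA in each such cell, and bulk libraries cannot tell fewer cycling cells from less RNA per cell.

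Recovered from the spacing of low values, the library totals lay between 19579279 and 21500665 reads. Each of the 30 members had at least 126 reads in every library. Control 3 stood apart from the other Control libraries. The median absolute difference over tested genes was 0.08 on the log2(FPKM + 1) scale between Control 1 and Control 2. It was 0.42 between Control 3 and Control 1, and 0.25 between Control 3 and MT 1. MT 2 was at 0.13 from Control 1, 0.14 from MT 1 and 0.15 from MT 3. Results that rest on Control 3 are therefore given with and without it. Control 3 was singled out by its values, and Control 1 and Control 2 lay close together. The p-values of fits without Control 3 rest on that narrower spread and may be too small.

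Of the Sertoli cell markers looked up, KRT18, AMH, WT1 and SOX9 were expressed, with WT1 at 10.0 to 12.8 FPKM and SOX9 at 1.61 to 2.40. DHH, INHA and DMRT1 were under 0.1 FPKM in every library, and GATA4, FSHR and CLDN11 were not analysed here. The 8 Sertoli markers with a row summed to 104.2 to 123.8 FPKM in the Control libraries and 110.5 to 117.2 in MT. KRT18 made up most of these sums. The 5 peritubular myoid markers summed to 160.3 to 264.8 and 161.7 to 194.2, of which TAGLN made up most. DES was at 5.55 to 9.43 FPKM over the 6 libraries and CNN1 at 0.83 to 1.07. MYH11 was under 0.1 and ACTA2 at most 0.21. Leydig markers summed to 3.93 to 4.39 and 3.74 to 4.87. STAR was at 2.12 to 2.68 and CYP11A1 at 1.46 to 2.47, with CYP17A1 and HSD17B3 under 0.1. Germ cell markers summed to 1.41 to 2.75 and 1.43 to 1.83. DND1 was at 1.07 to 2.41 and SYCP3 at most 0.45, with DDX4 and TDRD1 under 0.1. Endothelial markers summed to 0.16 to 0.31 and 0.15 to 0.32. Leukocyte markers summed to 9.38 to 12.2 and 11.6 to 13.3. CD14 was at 6.21 to 8.30, with CSF1R and CD163 under 0.1. Of the markers of other cell types, CD68 alone had separate groups, at 4.14, 3.18 and 3.87 FPKM for Control and 5.30, 4.50 and 4.66 for MT, a log2 difference of 0.30 (SE 0.13) that did not pass in limma. The myoid sum was highest in Control 3, and the part of these levels in the results below was not tested.

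All 30 measured members had a lower mean log2 level in MT than in Control, with a median log2 difference of -0.27 and a range from -0.59 to -0.01. Over all tested genes the median was 0.02, and 44.0% were lower in MT. The direction of GMNN, the smallest difference, turned to 0.004 with a pseudocount of 0.1 and 0.01 in limma voom on recovered reads. In 13 of the 30 members (43.3%) the 3 MT values lay below the 3 Control values, against 4.99% of all tested genes, and in 0 members did they lie above. These 13 were ORC1, CDC6, MCM2, MCM3, MCM4, MCM7, GINS1, GINS3, GINS4, POLA1, POLA2, POLE and TK1. Since the members were chosen with earlier results of these data known, these counts and shares are descriptions.

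No member passed an adjusted p of 0.05 in limma over the 10950 genes (0.00% of all genes passed). The smallest adjusted p among the members was 0.74, and 10 members had an unadjusted p under 0.05, all of them lower in MT, against 4.72% of all genes in either direction and 2.39% lower in MT. Limma voom on recovered reads also passed 0 members, with 9 under an unadjusted p of 0.05, against 494 of the 10950 genes in either direction. Without Control 3, limma passed 10 members, all of them lower in MT, against 6.62% of all genes. Those 10 were ORC1, CDC6, MCM6, MCM10, GINS1, GINS3, POLA1, POLA2, PRIM1 and RFC4. Of these, 8 were among the 13 members with Control 3 as the lowest Control value. The other 2 were among the 17 members with Control 3 as the highest. Over all tested genes, 12.5% fell where Control 3 was lowest and 0.99% where it was highest. Without Control 3 the median over the members was -0.23, and 26 of 30 were lower in MT, against 50.6% of all genes. MCM5, RFC2, RFC5 and TYMS then turned to differences of 0.04, 0.05, 0.01 and 0.05, within 1 SE of 0.

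**Figure D1:**
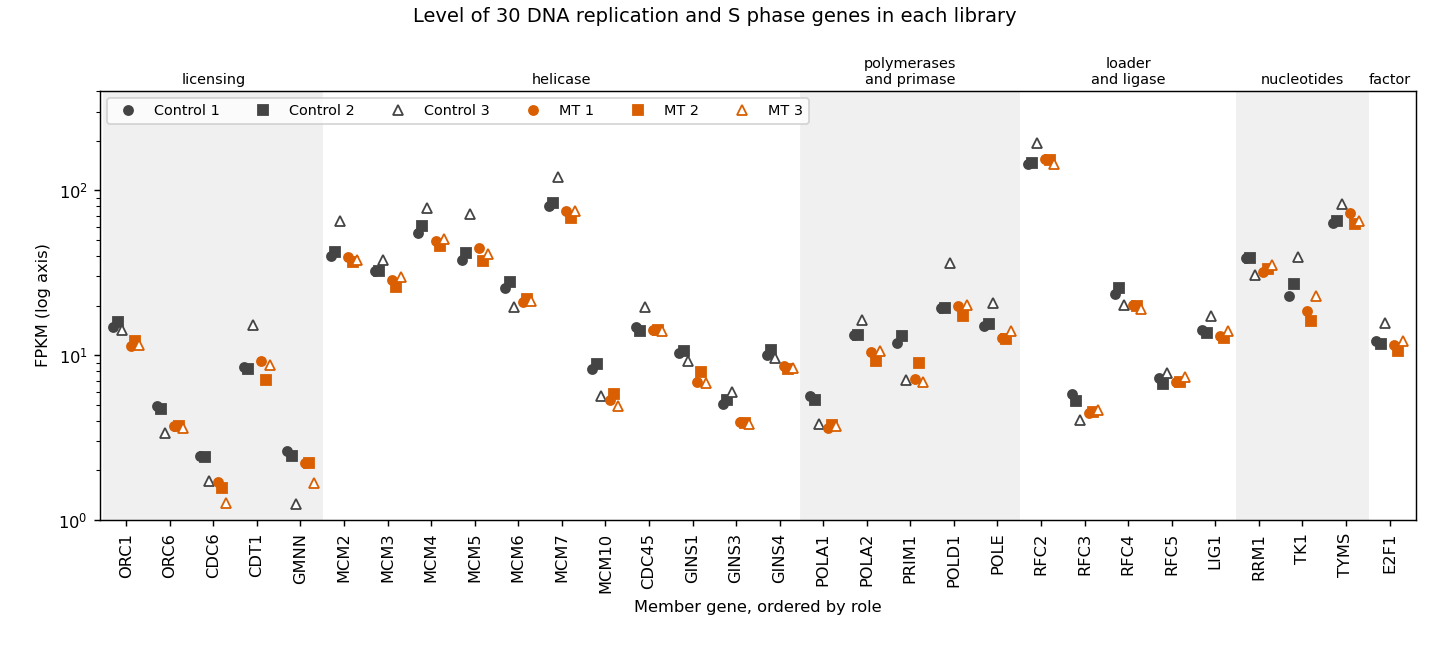
FPKM of each member in each library on a log axis, with Control in grey, MT in orange, and replicate 3 of each group as an open triangle. Levels run from 1.25 for GMNN to 194 for RFC2, and the open grey triangle of Control 3 lies above the other Control values in 17 members and below them in 13.

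Every Control library stood above every MT library over most members. In the 9 pairs of 1 Control and 1 MT library, 23 to 29 of the 30 members were higher in the Control library, with medians of 0.13 to 0.37 on the log2 scale. Over all tested genes the share higher in the Control library was 41.2% to 56.2% in the same 9 pairs. The pair of Control 1 and MT 2 had the most, 29 of 30 with a median of 0.24. Control 3, taken alone, was higher than MT 1, MT 2 and MT 3 in 23, 23 and 25 members. The 9 pairs share libraries and are not independent.

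Licensing genes had a median difference of -0.27, with 5 of 5 measured members lower and 2 without overlap between groups. Over all tested genes the median was 0.02, with 44.0% lower and 4.99% with the 3 MT values below the 3 Control values. ORC1, the largest subunit of the origin recognition complex (ENSSSCG00000003861, chromosome 6, 159819302 to 159852306), stood at 14.8, 15.9 and 14.1 FPKM in Control 1 to 3 and at 11.4, 12.2 and 11.5 in MT 1 to 3. The groups were separate, with Control 3 the lowest Control value. The means were 14.9 ± 0.90 and 11.7 ± 0.43 (SD, n = 3), a log2 difference of -0.32 (SE 0.10, limma adjusted p 0.84), and without Control 3 it was -0.36 (adjusted p 0.037). CDC6, the ATPase that brings the MCM ring to the origin complex (chromosome 12, 22101281 to 22118441), was at 2.46, 2.40 and 1.73 FPKM in the Control libraries and 1.71, 1.57 and 1.27 in MT. Control 3 was just above MT 1, and CDC6 rested on 141 to 257 reads. Its difference was -0.34 (SE 0.14) over 6 libraries and -0.45 (limma adjusted p 0.047) without Control 3. CDC6 lost this call without Control 3 with quantile normalization (limma adjusted p 0.057) and with a pseudocount of 0.1 (0.052). ORC6, the smallest subunit of the complex, stood at 4.91, 4.71 and 3.38 in Control and 3.74, 3.73 and 3.61 in MT, so that Control 3 lay below all MT values. Its difference was -0.17 (SE 0.14), and -0.31 (SE 0.08, limma adjusted p 0.05003) without Control 3, which did not pass.

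The loader CDT1 and its inhibitor geminin parted in Control 3. CDT1 was at 8.46, 8.23 and 15.3 FPKM in the Control libraries and 9.22, 7.11 and 8.72 in MT. GMNN, which encodes geminin, was at 2.63, 2.45 and 1.25 in Control and 2.20, 2.20 and 1.69 in MT. Control 3 held the highest CDT1 value and the lowest GMNN value of the 6 libraries, so that the ratio of CDT1 to GMNN was 12.3 there and 3.21 to 5.17 in the other libraries. The difference of CDT1 between MT and Control was -0.27 (SE 0.24), and -0.01 without Control 3. That of GMNN was -0.01 (SE 0.21), and -0.23 without Control 3, and neither passed in either fit.

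The helicase genes had a median of -0.33, with 11 of 11 measured members lower, against 44.0% of all tested genes. Of the 11, 7 were without overlap, against 4.99% of all tested genes with MT below Control. The ring itself is built of 6 related ATPases in equal numbers. Its RNAs were not at equal levels, from MCM7 at a mean of 94.8 FPKM in Control down to MCM6 at 24.3. MCM7 (chromosome 3, 8005890 to 8014047) stood at 80.5, 83.9 and 120.1 FPKM in the Control libraries and 74.8, 67.7 and 74.4 in MT. MCM4 (chromosome 4, 79674737 to 79686964) stood at 55.1, 60.7 and 78.2 in Control and 49.5, 45.9 and 50.3 in MT. Both had separate groups with Control 3 the highest value of all, and differences of -0.36 (SE 0.17) and -0.39 (SE 0.15). Without Control 3 these were -0.18 and -0.25, and neither passed in limma, while MCM4 passed without Control 3 in limma voom (adjusted p 0.045) and with quantile normalization (0.047).

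MCM2 and MCM3 repeated that order. MCM2 (chromosome 13, 72630378 to 72651270) was at 39.9, 42.4 and 65.2 FPKM in the Control libraries and 39.2, 36.7 and 37.9 in MT. MCM3 (chromosome 7, 46084648 to 46104425) was at 32.3, 32.2 and 37.7 in Control and 28.6, 25.9 and 29.8 in MT. Groups were separate for both, but for MCM2 the gap between Control 1 and MT 1 was small beside the distance of Control 3. The difference of MCM2 was -0.33 (SE 0.19) with Control 3 and -0.11 (SE 0.07) without it. That of MCM3 was -0.27 (SE 0.12) and -0.19 (SE 0.08). MCM5, at 38.0, 41.7 and 71.7 in Control and 44.6, 37.1 and 41.2 in MT, had a difference of -0.24 (SE 0.24), and of 0.04 without Control 3.

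MCM6 was the exception in the ring. MCM6 (chromosome 15, 15923638 to 15978587) stood at 25.6, 28.0 and 19.5 FPKM in the Control libraries and 21.1, 22.0 and 21.4 in MT. Control 3 was the lowest of the 6 libraries here and the highest for the other 5 ring genes. Its difference was -0.16 (SE 0.15) over 6 libraries and -0.30 (SE 0.07, limma adjusted p 0.045) without Control 3. The ratio of MCM2 to MCM6 was 1.56 and 1.52 in Control 1 and Control 2, 3.34 in Control 3, and 1.67 to 1.86 in MT. The ratio of MCM7 to MCM6 behaved alike, at 3.15, 3.00 and 6.15 in Control 1 to 3 and 3.08 to 3.55 in MT.

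The factors that turn the ring into a working helicase include the GINS complex, MCM10 and CDC45. GINS1, a subunit of the GINS complex (ENSSSCG00000034913, chromosome 17, 31060540 to 31076807), stood at 10.3, 10.6 and 9.22 FPKM in the Control libraries and 6.85, 7.93 and 6.79 in MT. GINS3 (chromosome 6, 20162264 to 20170385) stood at 5.06, 5.35 and 5.94 in Control and 3.94, 3.87 and 3.85 in MT. GINS4 (chromosome 17, 10656869 to 10668664) stood at 10.1, 10.8 and 9.67 in Control and 8.59, 8.26 and 8.33 in MT. The groups were separate for all 3 measured GINS genes, and Control 3 was near the other Control values. Their differences were -0.43 (SE 0.12), -0.40 (SE 0.11) and -0.25 (SE 0.10), with limma adjusted p of 0.74 for GINS1 and GINS3. Without Control 3, GINS1 (-0.49, limma adjusted p 0.032) and GINS3 (-0.34, 0.042) fell, and GINS4 (-0.28, 0.051) did not pass. GINS3 lost this call without Control 3 in limma voom (adjusted p 0.055) and with quantile normalization (0.052). GINS3 rested on 159 to 250 reads per library.

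MCM10, which binds the helicase as origins fire (chromosome 10, 48481292 to 48523921), was at 8.24, 8.84 and 5.66 FPKM in the Control libraries and 5.33, 5.82 and 4.92 in MT. Control 3 lay between the MT values. The difference was -0.41 (SE 0.17) over 6 libraries and -0.59 (SE 0.09, limma adjusted p 0.025) without Control 3. CDC45, the partner of GINS in the active helicase, was at 14.8, 14.1 and 19.7 in Control and 14.1, 14.2 and 14.0 in MT. Apart from Control 3 its 5 values lay within 1 FPKM of each other, and the difference of -0.18 became -0.04 without that library.

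**Figure D2:**
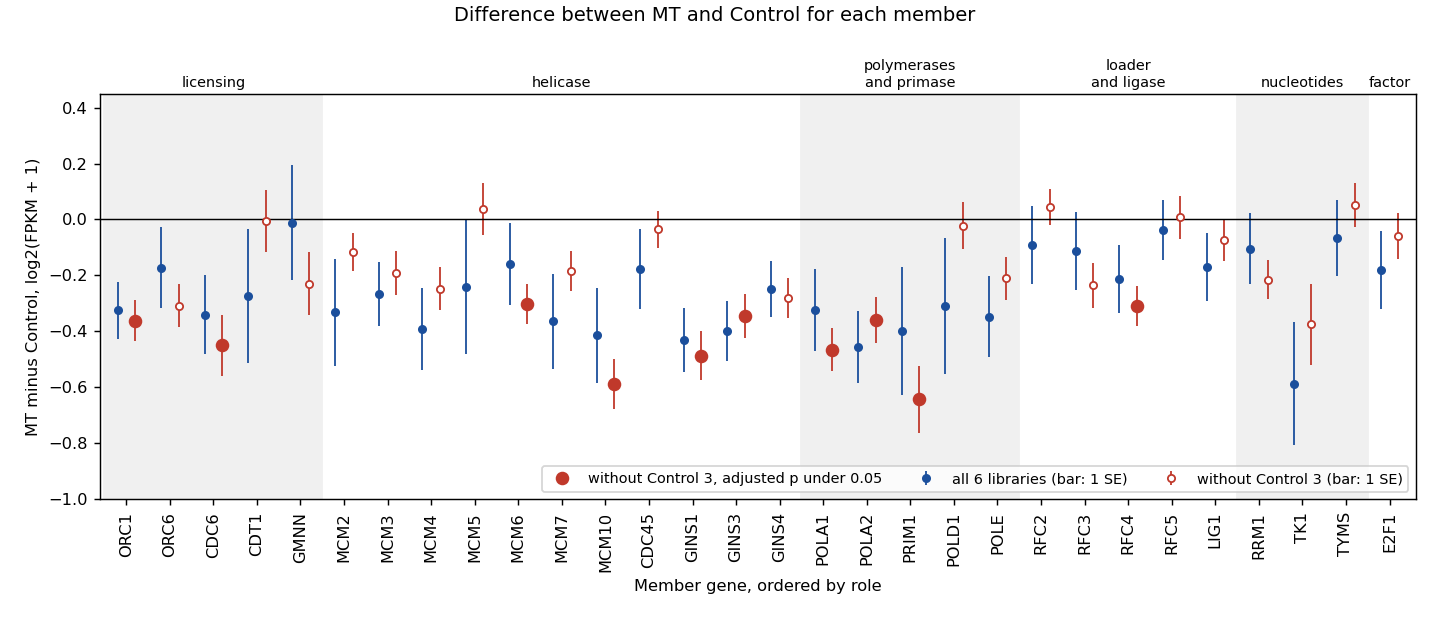
Difference of MT minus Control on the log2(FPKM + 1) scale for each member, with all 6 libraries in blue and without Control 3 in red, bars of 1 SE, and large filled red points where the adjusted p was under 0.05. All 30 blue points lie below 0, from -0.59 for TK1 to -0.01 for GMNN, and the 10 large red points lie between -0.64 and -0.30.

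For the polymerase and primase genes the median was -0.35, and all 5 members were lower, 3 of them without overlap. The shares over all tested genes were 44.0% lower and 4.99% with MT below Control. POLA2, the accessory subunit of the polymerase that lays down primers (chromosome 2, 6922384 to 6950289), stood at 13.2, 13.2 and 16.4 FPKM in the Control libraries and 10.5, 9.23 and 10.6 in MT. The groups were well separate, with means of 14.3 ± 1.86 and 10.1 ± 0.75 (SD, n = 3). The difference was -0.46 (SE 0.13, limma adjusted p 0.77) and without Control 3 it was -0.36 (adjusted p 0.043). POLA1, the catalytic subunit (chromosome X, 20756674 to 21064265), was at 5.66, 5.35 and 3.84 in Control and 3.63, 3.76 and 3.74 in MT. Its MT values were within 0.2 FPKM of each other, with Control 3 just above them. The difference was -0.32 (SE 0.15) and, without Control 3, -0.47 (limma adjusted p 0.027).

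PRIM1, the primase subunit that makes the RNA primer (chromosome 5, 22064248 to 22089441), stood at 11.8, 13.1 and 7.10 FPKM in the Control libraries and 7.14, 9.01 and 6.86 in MT. Control 3 lay among the MT values, so the groups overlapped. The difference was -0.40 (SE 0.23) over 6 libraries. Without Control 3 it was -0.64 (SE 0.12, limma adjusted p 0.032), the lowest of any member. The ratio of POLA2 to PRIM1, which belong to 1 enzyme, was 1.11, 1.01 and 2.31 in Control and 1.47, 1.03 and 1.54 in MT.

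The polymerases that extend the strands were nearer to 0 without Control 3. POLE, the catalytic subunit of the leading strand polymerase (chromosome 14, 22798146 to 22852818), was at 15.0, 15.5 and 20.6 FPKM in the Control libraries and 12.7, 12.5 and 14.0 in MT. Its groups were separate, with a difference of -0.35 (SE 0.15), and -0.21 (SE 0.08) without Control 3. POLD1, that of the lagging strand polymerase (chromosome 6, 55247799 to 55272087), was at 19.4, 19.3 and 36.0 in Control and 19.9, 17.4 and 20.1 in MT. Its difference of -0.31 (SE 0.24) became -0.02 (SE 0.08) without Control 3, and neither gene passed in either fit.

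The clamp loader and ligase genes had a median of -0.11. All 5 measured members were lower, against 44.0% of all tested genes, and 0 were without overlap, against 4.99% with MT below Control. RFC4, a small subunit of replication factor C (chromosome 13, 124589292 to 124604421), stood at 23.5, 25.7 and 20.0 FPKM in the Control libraries and 20.1, 19.8 and 19.1 in MT, with Control 3 just below MT 1. Its difference was -0.21 (SE 0.12) and, without Control 3, -0.31 (SE 0.07, limma adjusted p 0.044). It was the only member of this role that fell in that fit. RFC2 (chromosome 3, 11373489 to 11392690) was at 145, 146 and 194 in Control and 155, 152 and 144 in MT, the highest level of any member, and its groups overlapped. The difference of RFC2 was -0.09 (SE 0.14). RFC3, RFC5 and the ligase LIG1, which seals Okazaki fragments, had differences of -0.11, -0.04 and -0.17, all with overlapping groups. Without Control 3 they were -0.23, 0.01 and -0.07, and none of the 3 passed (limma adjusted p 0.087 for RFC3).

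Nucleotide supply genes had a median of -0.10, and 3 of 3 measured members were lower, against 44.0% of all tested genes. TK1, the thymidine kinase of the salvage route (chromosome 12, 3785997 to 3794824), stood at 22.8, 27.1 and 39.1 FPKM in the Control libraries and 18.6, 16.0 and 22.7 in MT. The groups were separate only narrowly, since Control 1 and MT 3 nearly met. Its difference of -0.59 (SE 0.22, limma adjusted p 0.97) was the lowest of the 30 over 6 libraries, and became -0.38 (SE 0.15, adjusted p 0.12) without Control 3. TYMS, which makes thymidylate anew, was at 63.7, 65.2 and 82.6 in Control and 72.6, 62.8 and 65.4 in MT. RRM1, the large subunit of ribonucleotide reductase, was at 38.6, 39.0 and 30.6 in Control and 31.7, 33.3 and 35.0 in MT. Groups overlapped for both, and the differences of -0.07 (SE 0.13) for TYMS and -0.10 (SE 0.13) for RRM1 were smaller than their SE. Without Control 3 that of RRM1 was -0.22 (SE 0.07, limma adjusted p 0.077), which did not pass, and that of TYMS was 0.05 (SE 0.08).

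E2F1, the transcription factor that drives many of these genes (chromosome 17, 37178587 to 37190118), stood at 12.2, 11.7 and 15.7 FPKM in the Control libraries and 11.6, 10.6 and 12.2 in MT. Its groups overlapped, the difference was -0.18 (SE 0.14), and it was -0.06 (SE 0.08) without Control 3.

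**Figure D3:**
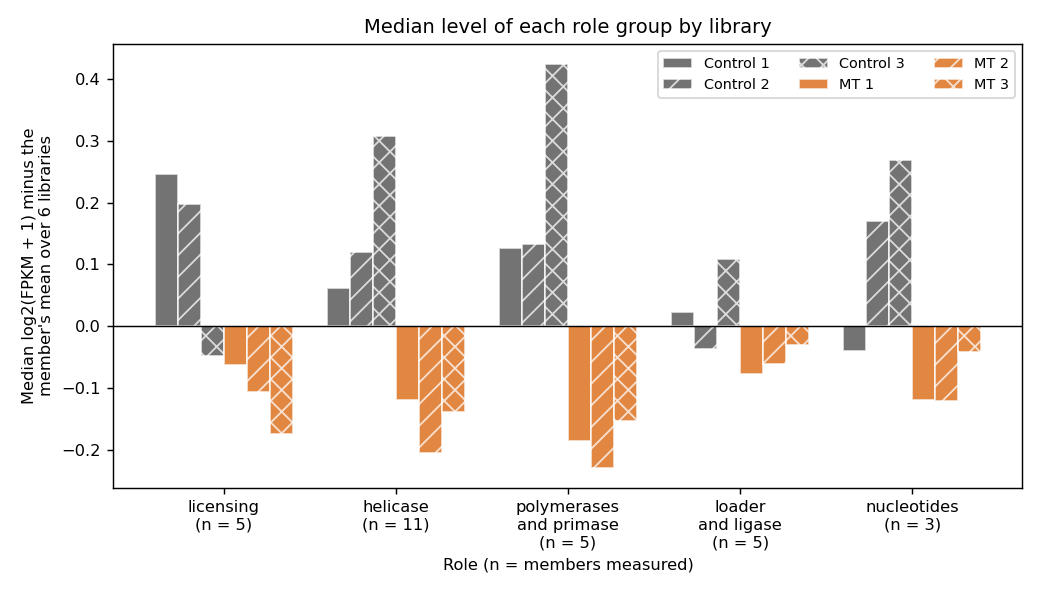
Median over the measured members of each role of log2(FPKM + 1) minus the member's own mean over 6 libraries, 1 bar per library, with Control in grey and MT in orange. All MT bars lie below 0, the polymerase bars of MT reach -0.23, and Control 3 is the highest bar in every role but licensing, where it is at -0.05.

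The roles thus did not stand equally far from 0, but the difference between roles was not tested. In the helicase and polymerase genes the median by library lay at 0.06 to 0.42 in Control and at -0.23 to -0.12 in MT. In the licensing genes Control 3 (-0.05) was close to MT 1 (-0.06). In the loader and ligase genes Control 2 (-0.04) lay between MT 3 (-0.03) and MT 2 (-0.06), so that the groups met.

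The members fell into 2 sets by the place of Control 3. In 17 members Control 3 was the highest Control value, by a median of 0.41 over the mean of Control 1 and Control 2 on the log2 scale. In the other 13 it was the lowest, by a median of -0.37. Over all tested genes it was highest in 45.3% and lowest in 48.3%. The 17 had a median recovered gene length of 2875 bases and the 13 one of 4820, against 3584 and 4834 for all tested genes in the same positions. Across the 30 members Spearman's rho between length and the deviation of Control 3 was -0.33, and across all tested genes -0.20. These are descriptions across genes of the same libraries, and POLE at 8147 bases and RFC4 at 1536 went the other way.

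The position of Control 3 is read from Control values that also enter the difference, so the medians below are descriptions. Members with Control 3 highest had a median difference of -0.27, against 0.03 for all genes with Control 3 highest. Members with Control 3 lowest had -0.25, against 0.01. Without Control 3 the medians were -0.07 and -0.31 for the members and 0.16 and -0.17 for all genes. MT 2 was the lowest MT library in 14 of the 17 members with Control 3 highest, and in 72.4% of all such genes. Where Control 3 was lowest, MT 2 was the highest MT library in 6 of the 13 members and 66.1% of all such genes. The part of this order in the fits without Control 3 was not tested.

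**Figure D4:**
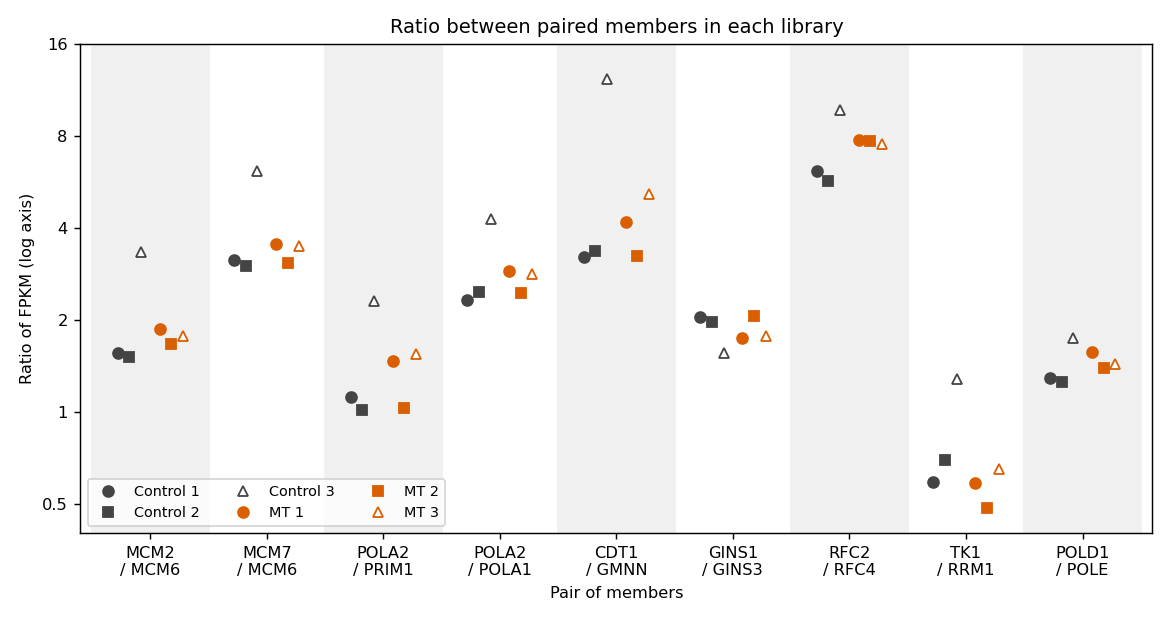
Ratio of FPKM between 9 pairs of members in each library on a log axis, with Control in grey, MT in orange and replicate 3 as an open triangle; the pairs were chosen after their values were seen. Control 3 is the highest value in 8 of the 9 pairs and the lowest in GINS1 to GINS3. The distance of Control 3 from the other libraries differs between pairs. CDT1 to GMNN is at 12.3 in Control 3 and 3.21 to 5.17 elsewhere, while POLD1 to POLE is at 1.74 and 1.25 to 1.56.

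Some members overlap another gene on the Sscrofa11.1 annotation, and the strand setting of the counting is not given in the sources used here. MCM7 shares 347 bases with AP4M1, RFC5 shares 607 with WSB2, and RFC4 shares 5 with EIF4A2. ORC1, MCM4 and RFC3 overlap long noncoding RNAs, and POLE overlaps a pseudogene. These overlaps are between whole gene spans, introns included, and shared exons were not looked up. Whether reads from such partners enter the values of these 7 genes was not tested.

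Another 59 genes of replication were listed in 5 groups. Of these, 53 were tested, 41 were lower and 12 higher in MT over 6 libraries, against 44.0% of all genes lower, and the median was -0.16. None passed in limma (0 rose and 0 fell). Without Control 3, 16 of the 53 fell and 0 rose, against 6.62% of all genes that fell, and the median was -0.25. Among the lists, chromatin assembly and fork protection had a median of -0.23, the other polymerase, loader and single-strand binding genes -0.16, the S phase cyclins and E2F genes -0.12, the other origin genes -0.12 and the other nucleotide genes -0.09.

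Ranked by p among the genes lower in MT, the first 3 were ASF1B, E2F8 and E2F7. ASF1B, a histone chaperone of replicating chromatin, stood at 11.3, 12.3 and 15.1 FPKM in the Control libraries and 9.64, 8.69 and 8.77 in MT. E2F7 and E2F8 encode repressors of E2F targets that are themselves expressed in S phase. E2F7 stood at 9.37, 9.22 and 7.35 in Control and 5.87, 6.61 and 6.43 in MT, and E2F8 at 3.54, 4.65 and 3.41 in Control and 2.53, 2.74 and 2.49 in MT. The groups were separate in all 3, with differences of -0.47 (SE 0.13), -0.40 (SE 0.13) and -0.43 (SE 0.13) for ASF1B, E2F7 and E2F8. All 3 fell without Control 3, by 0.35, 0.50 and 0.50 on the log2 scale (limma adjusted p 0.043, 0.026 and 0.043). Those higher in MT with the smallest p were RBL2, a relative of the retinoblastoma protein, ORC3 and the kinase CDC7, at 0.26 (SE 0.21), 0.21 (SE 0.30) and 0.07 (SE 0.15). RBL2 was at 7.31, 6.51 and 3.76 FPKM in the Control libraries and 6.82, 7.09 and 6.99 in MT. CDC7 was at 1.40, 1.45 and 0.82 in Control and 1.15, 1.35 and 1.47 in MT. ORC3, a subunit of the origin recognition complex, was at 7.39, 7.50 and 2.92 in Control and 6.11, 6.76 and 6.79 in MT. In all 3 Control 3 was the lowest library, and without it the differences were 0.01, -0.06 and -0.16 for RBL2, CDC7 and ORC3.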

How the data were processed

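The authors deposited FPKM values with 1 column per library and no pooling, per the file headers. HISAT2, featureCounts of Subread and bcl2fastq and the build Sscrofa11.1 are named in the submitters' processing notes. Tool versions, the annotation release and the strand setting: not given in the sources used here. Each FPKM value is tied to each library's sum, so a few abundant transcripts can move other values. Read numbers, gene lengths and library totals were recovered from the steps of the values, and 100% of the 10950 tested genes came out whole within 0.01 read, with 99.6% of each total in the table. Where the 6 read numbers of a gene share a divisor, the true numbers may be a multiple of them. Libraries of a group differed by a chi-square of 6.34 to 149.1 per degree of freedom, so none was treated as a copy.

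The test took genes whose mean reached 1 FPKM and compared them on log2(FPKM + 1), which understates changes of low genes, with limma 3.58.1 in R 4.3.3 (variance trend, two-sided, Benjamini-Hochberg over all tested genes, threshold 0.05). Data were simulated for the 10950 genes of this comparison. The fit of 6 libraries found 54% of the 2-fold and 90% of the 4-fold changes. That of 5 libraries without Control 3 found 87% and 97%. Each gene was drawn independently, and no change under 2-fold was simulated. All member differences were under 2-fold, so these shares do not apply to them. Of the table's genes, 63.5% have a symbol, and coordinates come from RefSeq's annotation of Sscrofa11.1 by symbol; MCM5 is unplaced there. Python 3.11.15 was used with pandas 2.3.3 and matplotlib 3.10.9.

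The members and lists were chosen with earlier results of these data known. Values by library are given for, in each role, the member with the smallest p and the one with the highest level, every member without overlap between groups, ORC1 and E2F1, and others where a sentence turns on them; of other replication genes, the 3 with the smallest p in each direction. The alternatives covered the pseudocount, the filter, the scaling, the variance model, a replicate block, voom on recovered reads and leaving out each library. Combinations of these without Control 3 were chosen after seeing the data. A planned count of promoter motifs was not run, as no sequence was used here.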

Additional observations from a re-analysis of the deposited data

How the results depend on the processing

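Over all 6 libraries, 0 members, 0 of the other replication genes and 0 genes passed in limma under every pseudocount, filter, scaling and variance model tried and in voom. The labels do not say whether the replicate numbers pair the libraries. Correlations of deviations were -0.44, 0.63 and 0.34 for numbers 1 to 3, and -0.63 to 0.50 between libraries of different numbers. With 3 libraries per group these values cannot decide it. With the replicate block, 0 genes and 0 members passed, and the members' median stayed at -0.27. Leaving out 1 library gave 0 to 1194 genes, 0 to 10 members and 0 to 16 other replication genes, the highest counts without Control 3 and 0 without any other. The members' median ranged from -0.31 to -0.23 and the number lower from 26 to 30. By role the medians ranged from -0.31 to -0.18 (licensing), -0.41 to -0.25 (helicase), -0.43 to -0.33 (polymerases), -0.16 to -0.07 (loader and ligase) and -0.22 to -0.10 (nucleotides).

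Combinations without Control 3, chosen after seeing the data, passed 2366 genes with voom, 1267 with median-of-ratios scaling, 1333 with quantile normalization and 1099 with a pseudocount of 0.1. They passed 10, 10, 9 and 9 members and 22, 17, 14 and 16 other replication genes. Of these members 9, 10, 8 and 9 were among the 10 passed without Control 3. The totals over all genes hold both directions. With voom 13.4% of all tested genes fell, against 6.62% in limma without Control 3. The share that fell is not given for the other combinations. The nucleotide median was -0.22, -0.23 and -0.22 with voom, quantile normalization and a pseudocount of 0.1. The cause was not tested.

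GMNN turned higher in MT with a pseudocount of 0.1 (0.0037) and in voom (0.012), and ranged from -0.23 without Control 3 to 0.12 without Control 1 (0.079 without Control 2 and 0.074 without MT 3). Leaving out 1 library, the others that turned did so without Control 3 alone: MCM5 ranged from -0.41 to 0.037, RFC2 from -0.16 to 0.045, RFC5 from -0.085 to 0.0074 and TYMS from -0.13 to 0.051. In the combinations in the order above, MCM5 was at 0.037, 0.041, 0.025 and 0.037, RFC5 at 0.0083, 0.012, 0.046 and 0.0083, and TYMS at 0.051, 0.056, 0.042 and 0.051. RFC2 was at 0.045, 0.050 and 0.045 in voom, median-of-ratios scaling and the lower pseudocount, and CDT1 at 0.023 with quantile normalization.

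The lowest read numbers were those of ORC6 (162 to 220 per library), GINS3 (159 to 250), GMNN (126 to 248) and CDC6 (141 to 257), where counting error weighs most.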

Other observations

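Genes of the next stage of the cycle, G2 and mitosis, were looked up beside the replication genes. All 14 tested members of that list were lower in MT, against 44.0% of all genes, with a median difference of -0.32. Of the 14, 6 had separate groups, against 4.99% of all genes with MT below Control. None passed in limma over 6 libraries (0 fell), and 10 of the 14 fell without Control 3, against 6.62% of all genes. Of the list, CCNB1, TOP2A and CDC20 are given here, chosen after their values were seen. CCNB1, the cyclin that drives entry into mitosis, stood at 64.1, 63.2 and 44.2 FPKM in the Control libraries and 37.4, 44.5 and 35.7 in MT, with Control 3 level with MT 2. TOP2A, the topoisomerase that untangles replicated chromosomes, stood at 50.2, 50.4 and 20.8 in Control and 27.2, 36.7 and 28.7 in MT, so that Control 3 was the lowest library. CDC20, the activator of the anaphase ligase, went the other way in Control 3, at 68.3, 71.0 and 111.8 in Control and 66.0, 67.4 and 63.3 in MT. Control 3 was the highest Control value in 4 of the 14 and the lowest in 10.

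RFC2 was 5.68 to 9.71 times RFC4 in FPKM, although both are subunits of 1 complex. CHEK1, the checkpoint kinase of S phase, was listed at 0.03 to 0.10 FPKM in the 6 libraries, while its upstream kinase ATR was at 3.24 to 5.51. Whether the row matched to CHEK1 holds all reads of that gene was not tested. SAMHD1, which degrades nucleotides, was at most 0.06.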
